A study of Mus musculus with 9 samples.

Results

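The metallothioneins Mt1, Mt2 and Mt3, the metal-sensing transcription factor Mtf1, the zinc exporter Slc30a1 and the zinc importer Slc39a14 were followed in the olfactory mucosa of mice given dexamethasone. These 6 genes were taken by gene symbol and were all found among the 19084 genes of the array, on 7 probes. Where a gene had more than 1 probe, which held here for Mtf1, the probe with the highest mean over the 9 arrays stood for it. RNA came from the olfactory mucosa of male C57BL/6 mice aged 6 to 8 weeks, with 27 mice in 3 groups of 9 and 3 samples of each group put on single-colour arrays. WK2 animals received dexamethasone, a synthetic agonist of the glucocorticoid receptor, every day over 2 weeks, by intraperitoneal injection of 1 mg/kg. D1 animals received dexamethasone over 1 day, and the labels print no dose or route of their own beside this group. Control animals received saline alone over 2 weeks, so the length of treatment as well as the agent separates D1 from control. The arrayed samples were picked within each group for their expression of Omp, the gene of olfactory marker protein. Nothing in the labels ties each sample to an animal of its own. The p-values therefore rest on sample-to-sample spread alone, part of which may be technical.

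Metallothioneins are small proteins rich in cysteine that bind zinc and copper and buffer free zinc in the cell. Zinc that enters the cytosol through importers of the Slc39 (ZIP) family, such as Slc39a14, binds the transcription factor MTF1, which then occupies metal response elements near Mt1, Mt2 and Slc30a1 and raises their transcription. Slc30a1, which encodes ZnT1, carries zinc out through the plasma membrane, so the response removes and stores the metal that set it off. Glucocorticoids are textbook inducers of Mt1 and Mt2. Mt3 is a neural metallothionein that metals induce weakly, and Slc39a14 is induced in liver by interleukin-6 during inflammation and also carries iron and manganese.

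The promoters of the metallothioneins and of Slc30a1 are shown because MTF1 is known to act on Mt1, Mt2 and Slc30a1 through metal response elements, while the 4 genes did not lie on the same side of control in WK2. Sequences are those of RefSeq on build GRCm38.p6, which held 5 of the 6 genes, and run from 250 bases before to 50 bases after the annotated start, 5′ to 3′. Capitals mark matches to the core of the metal response element, searched on both strands as TGCACNC or TGCGCNC.
Mt1 (chr8:94178839-94179138, + strand): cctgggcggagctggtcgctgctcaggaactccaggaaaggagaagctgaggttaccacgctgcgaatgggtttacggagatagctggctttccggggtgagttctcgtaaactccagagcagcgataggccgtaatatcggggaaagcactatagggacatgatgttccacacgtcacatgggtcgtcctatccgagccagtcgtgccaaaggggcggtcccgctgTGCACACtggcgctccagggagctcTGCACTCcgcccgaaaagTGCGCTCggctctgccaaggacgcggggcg
Mt2 (chr8:94172368-94172667, + strand): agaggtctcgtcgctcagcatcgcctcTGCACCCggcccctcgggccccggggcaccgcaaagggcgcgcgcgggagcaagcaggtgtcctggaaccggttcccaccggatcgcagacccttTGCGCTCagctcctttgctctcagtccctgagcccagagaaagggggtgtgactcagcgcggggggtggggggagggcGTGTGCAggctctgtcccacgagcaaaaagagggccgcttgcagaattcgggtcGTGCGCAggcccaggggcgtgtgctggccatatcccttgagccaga
Mt3 (chr8:94152357-94152656, + strand): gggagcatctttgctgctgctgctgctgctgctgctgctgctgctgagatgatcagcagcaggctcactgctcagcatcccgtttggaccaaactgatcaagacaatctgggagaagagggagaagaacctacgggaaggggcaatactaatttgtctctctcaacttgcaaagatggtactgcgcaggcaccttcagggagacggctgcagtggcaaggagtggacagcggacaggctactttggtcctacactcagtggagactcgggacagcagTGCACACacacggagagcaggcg
Slc30a1 (chr1:191906531-191906830, + strand): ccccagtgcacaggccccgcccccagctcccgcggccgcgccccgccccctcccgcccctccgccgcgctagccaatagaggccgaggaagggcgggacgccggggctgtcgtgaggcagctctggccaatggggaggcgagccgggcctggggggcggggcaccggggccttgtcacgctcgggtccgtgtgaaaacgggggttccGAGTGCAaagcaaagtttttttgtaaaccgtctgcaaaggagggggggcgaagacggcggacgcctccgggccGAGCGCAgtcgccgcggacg
The Mt2 window held 4 core matches, the Mt1 window 3, the Slc30a1 window 2 and the Mt3 window 1. The Mtf1 window, not shown, held 0. Of 32851 promoter windows of this length, 25.7% held at least 1 match, 7.11% at least 2, 1.97% at least 3 and 0.517% at least 4. The palindromic glucocorticoid response element (AGAACA, any 3 bases, TGTTCT) was in none of the 5 windows and in 3 of the 32851. The antioxidant response element core TGACNNNGC occurred once each in the Mt2 and Slc30a1 windows, and at least once in 12.4% of all windows. A match describes these letters only, and elements outside the window were not searched.

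The arrays had a median intensity of 1202 to 1447 and Pearson's r of 0.977 to 0.993 between arrays of a group. WK2 replicate 3 stood apart by its brightest probes, since the intensity that the brightest 1% of its probes exceeded was 125931, against 86419 to 93913 on the other 8 arrays, and values without it are given for the 6 genes, and for other zinc, metal and stress genes named where they differ by over 1.5 times or end a call. The 9 markers of mature olfactory neurons and the 4 measured markers of sustentacular cells, the supporting cells of this epithelium, were all above the dimmest 25% of features. Every other marker list, of bone and blood cells among them, met the same limit, so this does not tell the tissue from others, and samples were picked for Omp. In bulk tissue, fewer cells of a type and less RNA per cell cannot be told apart.

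Mt1 was the only one of the 6 genes to pass the test, and it did so in WK2 against control. Its intensity was 311989, 338636 and 318423 on the 3 control arrays, 367751, 451314 and 408822 on the D1 arrays, and 470021, 518565 and 546247 on the WK2 arrays. The 3 groups stood in rising order with no overlap between them. Group means were 323016 ± 13904 (SD, n = 3) in control, 409296 ± 41783 in D1 and 511611 ± 38586 in WK2. In WK2, Mt1 rose 1.58-fold over control (log2 0.66 ± 0.14 SE, adjusted p = 0.0499, limma with Benjamini-Hochberg adjustment). In D1 the difference from control was 0.34 ± 0.14 on the log2 scale (unadjusted p = 0.0364, adjusted p = 1.00, limma), and WK2 differed from D1 by 0.32 ± 0.14 (adjusted p = 0.248, limma), or by 0.28 without WK2 replicate 3. Log2 values are of intensity plus 50 throughout. The same rising order held in 1.02% of all features, and in 5 of the 236 brightest (2.12%), among which Mt1 lies.

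The Mt1 call sat at the edge of the threshold, being the last of the 380 features called in this comparison. With 1 array left out at a time it held only without WK2 replicate 1 (adjusted p = 0.0461, limma), and the other 8 gave an adjusted p of 0.0689 to 0.148, with 0.0822 and a log2 difference of 0.61 without WK2 replicate 3. The direction was the same in all 22 alternatives, while the size was 0.33 under cyclic loess (adjusted p = 0.185, limma) and 0.13 under quantile normalization (adjusted p = 0.592, limma), both of which act on differences between arrays that depend on brightness.

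Brightness moved with this result. The Mt1 probe was among the brightest on every array, at ranks 11 to 31 of 26423 probes. The 1% brightest features, 236 in number, had a median log2 difference of 0.34 in WK2 against control, where all features had 0.14, and Mt1 stood 0.32 above that median. In D1 against control the same features had a median of 0.06, and Mt1 stood 0.28 above it. In WK2 against D1 their median was 0.26, and Mt1 stood 0.06 above it. Within each array, 100% of the values under 20000 were whole multiples of 1 step to within 0.05 of a step. The step was 0.685 to 0.905 in control, 0.870 to 1.18 in D1 and 1.21 to 1.34 in WK2. Divided by the step and then by 1000, Mt1 was at 344.8, 494.3 and 378.2 in control, 422.6, 413.0 and 347.7 in D1, and 385.7, 387.5 and 452.5 in WK2. In these units the 3 groups overlapped. Division by the step acts on all probes of an array alike. Array medians as deposited were 1202 to 1383 in control and 1333 to 1447 in WK2, so counted in steps the medians were lower in WK2. The overlap of Mt1 in steps is therefore not a value relative to other probes. The brightest probe of each array lay at 568932 to 654094 steps. The part of brightness and array scaling in the Mt1 result was not tested.

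**Figure D1:**
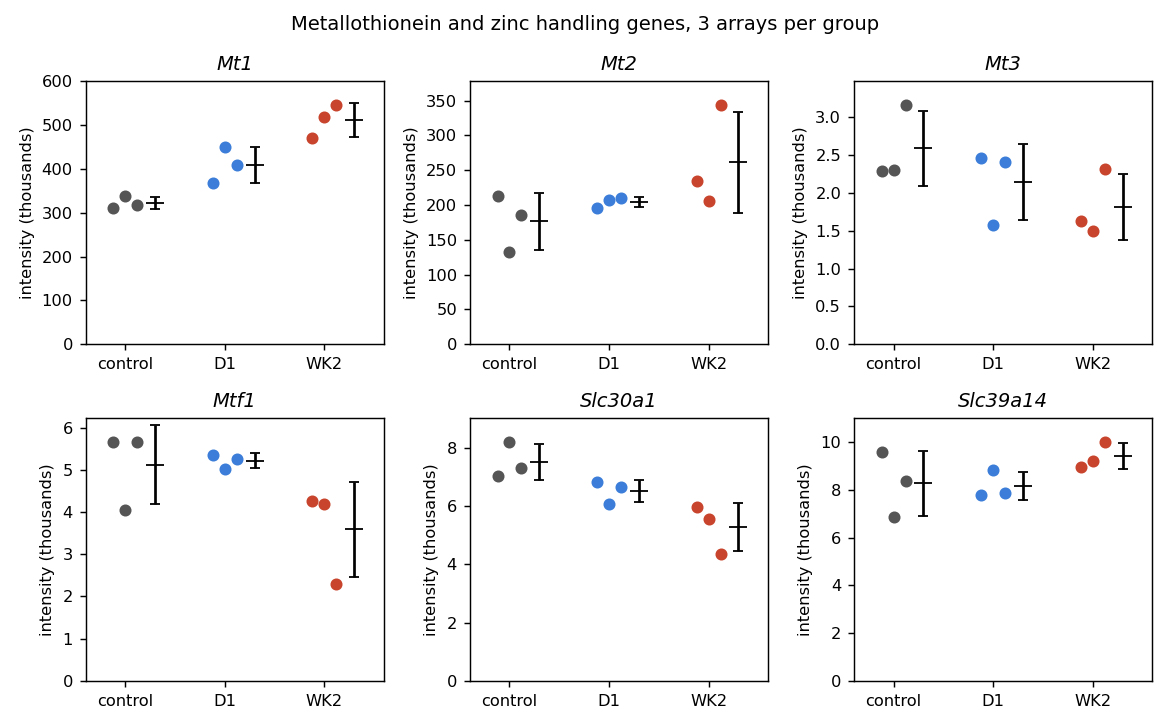
Intensity divided by 1000 (vertical axes, from 0) of the 6 genes on each array, with replicates 1 to 3 from left to right in each group and the group mean ± SD (n = 3) beside them. Mt1 stands in rising order and Slc30a1 in falling order over control, D1 and WK2 with no overlap, while the groups of Mt2 and Mt3 overlap.

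Mt2, which is induced along with Mt1 in most tissues, lay above control in the same direction and did not pass. It measured 212465, 132362 and 185362 in control, 196204, 207625 and 210039 in D1, and 234880, 205535 and 343870 in WK2. The lowest WK2 array was below the highest control array, so these groups overlapped, and WK2 replicate 3 was far above the other arrays. Means were 176730 ± 40743 (SD, n = 3), 204623 ± 7390 and 261428 ± 72889. The difference from control was 0.56 ± 0.23 (SE) in WK2 (adjusted p = 0.140, limma) and 0.24 ± 0.23 in D1 (adjusted p = 1.00, limma). Without WK2 replicate 3 the WK2 difference was 0.34, and without both that array and control replicate 2 it was 0.15. Without control replicate 2 the D1 difference was 0.044. WK2 differed from D1 by 0.32, or by 0.10 without WK2 replicate 3. Mt2 stood 0.22 above the median of the 1% brightest features in WK2 against control. The Mt1 and Mt2 transcripts are similar in sequence, and whether either probe also reads the other transcript was not tested.

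Mt3 lay on the other side of control from Mt1 and Mt2 and did not pass. Its intensity was 2296, 2306 and 3164 in control, 2466, 1572 and 2413 in D1, and 1627, 1495 and 2314 in WK2. The ranges of all 3 groups overlapped. The difference from control was -0.27 ± 0.23 (SE) in D1 and -0.51 ± 0.23 in WK2 (unadjusted p = 0.0535, adjusted p = 0.174, limma), and -0.70 in WK2 without its replicate 3. The D1 value was -0.068 without D1 replicate 2 and -0.12 without control replicate 3. WK2 differed from D1 by -0.24, or by -0.42 without WK2 replicate 3. Since Mt3 is abundant in astrocytes of the brain, 6 measured markers of astrocytes and the olfactory bulb were set beside it. In WK2, 3 of them lay above and 3 below control, none was called, and their summed intensity ran from 69964 to 134325 in control and from 103356 to 117987 in WK2. Gfap, the defining astrocyte marker, overlapped between the groups, at 303.1, 250.7 and 564.9 in control and 275.4, 279.7 and 345.3 in WK2. Most of the sum came from brighter markers, with control means of 41513 for Aqp4 and 36475 for Gad1 beside 373 for Gfap. The water channel gene Aqp4 differed by 0.50 ± 0.36 (SE) and the glutamate transporter gene Slc1a2 by -0.64 ± 0.20 (adjusted p = 0.0819, limma). Whether these markers read astrocytes or bulb in this tissue was not tested. Their part in the Mt3 values was not tested.

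The metallothionein genes lie side by side in RefSeq's gene order, as Mt4, Mt3, Mt2 and Mt1, with Bbs2 before and Nup93 after them. Mt4, a metallothionein of stratified epithelia, was dim, at 61.5 to 219 in control and 134 to 213 in WK2, with a WK2 difference of 0.47 ± 0.31 (SE). The flanking genes had WK2 differences of -0.05 ± 0.20 (Bbs2, a cilium trafficking gene) and -0.14 ± 0.19 (Nup93, a nuclear pore gene). Of the 6 adjacent genes, Mt1 alone was called in WK2, and none was called in D1.

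Slc30a1, the plasma membrane zinc exporter, stood in falling order over the 3 groups. It measured 7036, 8217 and 7297 in control, 6828, 6089 and 6665 in D1, and 5959, 5550 and 4365 in WK2. No 2 of these groups overlapped, an order shared by 1.07% of all features. Means were 7517 ± 621 (SD, n = 3), 6527 ± 388 and 5292 ± 828. The difference from control was -0.20 ± 0.16 (SE) in D1 (adjusted p = 1.00, limma) and -0.51 ± 0.16 in WK2 (unadjusted p = 0.00852, adjusted p = 0.0821, limma), which did not pass. WK2 differed from D1 by -0.31 ± 0.16 (adjusted p = 0.294, limma). Without WK2 replicate 3 the WK2 difference was -0.38 from control and -0.18 from D1. Over the 22 alternatives it lay between -0.61 and -0.31 and passed in 0, and an exact permutation test of 3 arrays against 3 cannot give a p under 0.1, the value it gave in each of the 3 comparisons. Features of like brightness, the 5% band that holds Slc30a1, had a median difference of -0.07 in WK2.

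Mtf1, the zinc sensor that drives Mt1, Mt2 and Slc30a1, gave different answers on its 2 probes. The brighter probe measured 5660, 4040 and 5669 in control, 5357, 5024 and 5270 in D1, and 4265, 4198 and 2301 in WK2. WK2 overlapped control through control replicate 2 and lay below all 3 D1 arrays. The WK2 difference was -0.54 ± 0.24 (SE) from control (adjusted p = 0.166, limma) and -0.59 ± 0.24 from D1 (adjusted p = 0.235, limma), and neither passed. Without WK2 replicate 3 these were -0.26 and -0.30. The dimmer probe, at 332 to 504 in control and 407 to 462 in WK2, gave 0.04 for WK2 against control, and the mean of both probes gave -0.25. In D1 the brighter probe differed from control by 0.04 ± 0.24.

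Slc39a14, a zinc, iron and manganese importer, measured 9577, 6876 and 8352 in control, 7770, 8819 and 7849 in D1, and 8971, 9217 and 10012 in WK2. All 3 WK2 arrays lay above the D1 arrays, and the wide control range overlapped both. The difference in WK2 was 0.20 ± 0.16 (SE) from control (adjusted p = 0.397, limma) and 0.21 ± 0.16 from D1 (adjusted p = 0.450, limma), or 0.15 and 0.16 without WK2 replicate 3. In D1 it was -0.01 ± 0.16, and the sign turned to positive in 6 of 22 alternatives, among them quantile normalization (0.02) and cyclic loess (0.02).

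**Figure D2:**
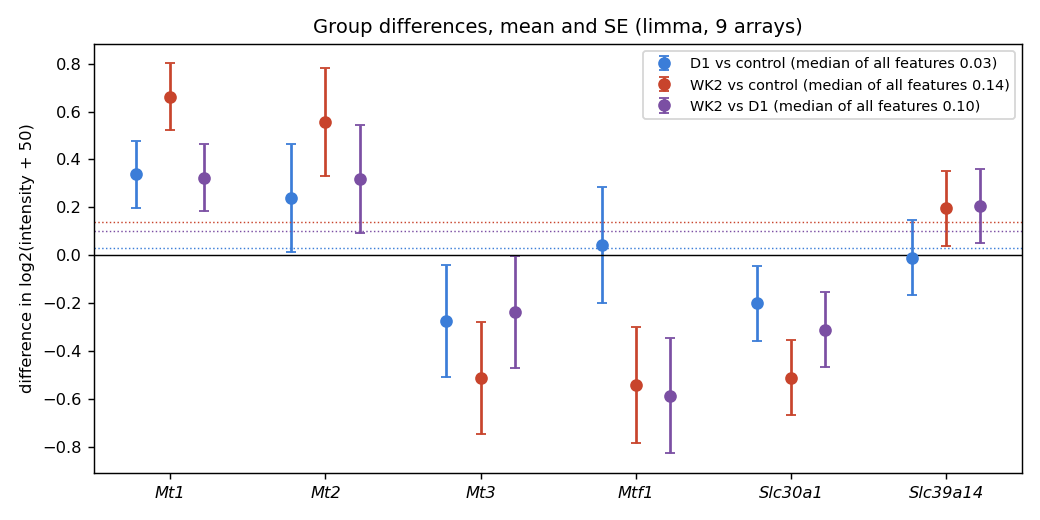
Difference in log2(intensity + 50) between groups for each of the 6 genes, as fitted by limma on 9 arrays, with bars of 1 SE and dotted lines at the median over all 23631 features for each comparison. In WK2 against control Mt1 (0.66) and Mt2 (0.56) lie above 0 and Mt3 (-0.51), Mtf1 (-0.54) and Slc30a1 (-0.51) below it.

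Counted together, 1 of the 6 genes was called higher in WK2 against control, where 1.61% of the 23631 features were called (0.432% higher and 1.18% lower). None was called in D1 against control, where limma called 0 features at all and 473 had an unadjusted p under 0.05. None was called in WK2 against D1, where 0.0931% of features were (0.0296% higher and 0.0635% lower). In WK2 against control, 4 of the 6 had an unadjusted p under 0.05, and so did 7028 of all features. Groups did not overlap for 1 gene higher and 1 lower in D1 against control, where 10.1% of all features did not (4.92% higher and 5.19% lower). The same held for 1 higher and 1 lower in WK2 against control, where the share was 37.6% (23.8% higher and 13.8% lower). It held for 2 higher and 2 lower in WK2 against D1, where the share was 31.4% (18.7% higher and 12.6% lower). The median of the 6 differences in WK2 was -0.16 against 0.14 over all features, and the median size regardless of sign was 0.53 against 0.31. These comparisons share arrays and are not independent of each other.

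**Figure D3:**
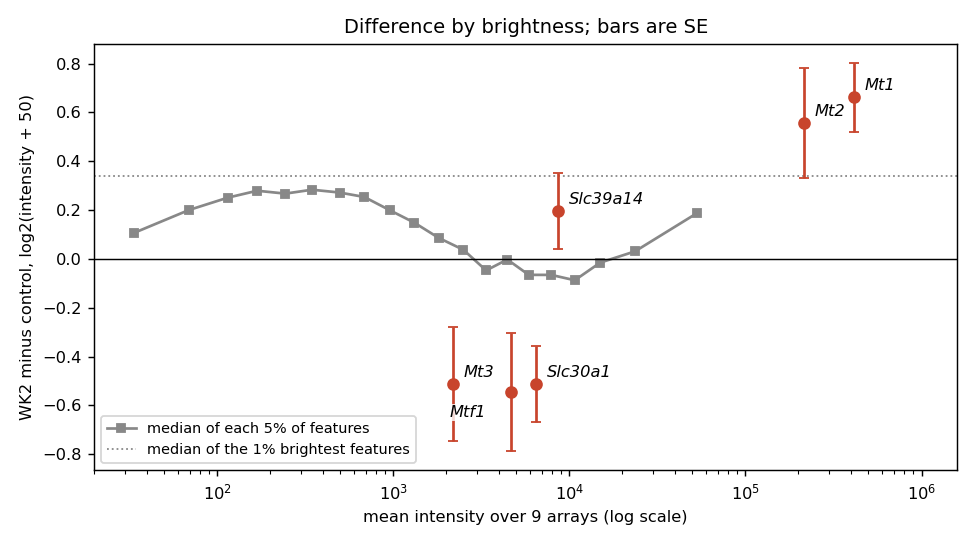
WK2 minus control in log2(intensity + 50) against mean intensity over 9 arrays (log scale), with the 6 genes in red (bars of 1 SE), the median of each 5% of features by brightness in grey, and the median of the 1% brightest features (0.34) as a dotted line. Mt1 and Mt2 lie at the bright end, where the medians rise, and Mt3, Mtf1 and Slc30a1 lie below the medians of features of like brightness.

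The other zinc transporters were not called in any comparison. All 10 Slc30 genes, a family in which most members move zinc out of the cytosol, were measured. In WK2 against control 7 lay above and 3 below 0, with a median of 0.20 against 0.14 over all features. Slc30a4, which loads zinc into vesicles, measured 9188, 11671 and 8211 in control and 13580, 17570 and 16239 in WK2. Its WK2 arrays all lay above control, opposite to Slc30a1, with a difference of 0.71 ± 0.18 (SE, adjusted p = 0.0638, limma) that passed in 3 of 22 alternatives, quantile normalization (adjusted p = 0.0480) among them. Slc30a6, a transporter of the secretory pathway, differed between WK2 and D1 by 0.81 ± 0.29 (adjusted p = 0.205, limma), with 3840, 5651 and 10209 in WK2 and 3203 to 3839 in D1, so that 1 array, WK2 replicate 3, was far above the rest. Without it the difference was 0.43.

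All 14 Slc39 genes, which bring zinc into the cytosol, were measured. In WK2 against control 8 lay above and 6 below 0, with a median of 0.04. Slc39a3, which encodes the importer ZIP3, measured 8340, 8807 and 10481 in control, 7162, 6142 and 7876 in D1, and 6052, 5301 and 3676 in WK2. The groups did not overlap and stood in the falling order seen for Slc30a1. The WK2 difference was -0.90 ± 0.20 (SE, adjusted p = 0.0551, limma), past the threshold in 6 of 22 alternatives, among them quantile normalization (adjusted p = 0.0410) and without WK2 replicate 1 (0.0406). Slc39a5 differed by 0.41 ± 0.17 (adjusted p = 0.147, limma) in WK2 against control, and Slc39a10, which MTF1 is reported to repress, by 0.49 ± 0.24 (adjusted p = 0.285, limma) in WK2 against D1. The Slc39a10 difference was 0.20 without WK2 replicate 3, which stood at 12856 beside 6586 and 7468 on the other WK2 arrays.

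**Figure D4:**
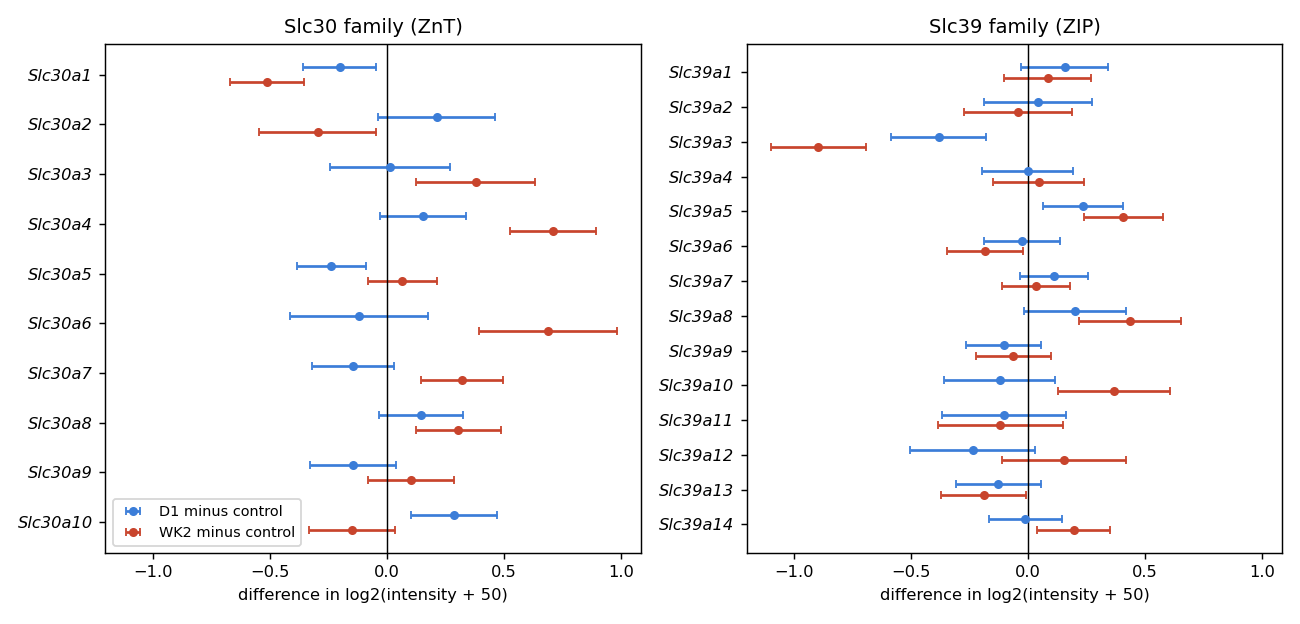
Difference from control in log2(intensity + 50) for the 10 Slc30 genes (left) and the 14 Slc39 genes (right) after 1 day (blue) and 2 weeks (red) of dexamethasone, with bars of 1 SE. In WK2, Slc30a4 (0.71) is the highest and Slc39a3 (-0.90) the lowest, and none of the 24 genes passed the test.

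Of 5 further genes reported as MTF1 targets, 4 were measured and 0 were called. Csrp1, a muscle and stroma LIM protein, differed by -0.38 ± 0.17 (SE) in WK2 against control, Ndrg1, a stress response gene, by -0.31 ± 0.14, and Gclc, which makes glutathione, by 0.40 ± 0.23. Of 18 measured iron, copper and manganese genes 0 were called, with 12 above and 6 below control in WK2 and a median of 0.24. Among them Slc11a2, the divalent metal importer DMT1, differed by -0.67 ± 0.20 between WK2 and D1 (adjusted p = 0.158, limma), and the copper chaperone genes Cox17 and Atox1 by 0.56 ± 0.18 and 0.41 ± 0.15 between WK2 and control (adjusted p = 0.0920 and 0.114, limma). Without WK2 replicate 3 the Cox17 difference was 0.37.

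Of 17 measured oxidative stress genes, 1 was called higher and 0 lower in WK2, with 12 above control and a median of 0.40. This was Prdx1, a peroxide-reducing enzyme, which rose by 1.11 ± 0.23 on the log2 scale (SE, adjusted p = 0.0493, limma). It measured 3405, 3441 and 2510 in control, 4495, 4545 and 3689 in D1, and 5036, 6511 and 9159 in WK2, in rising order with no overlap as for Mt1. With 1 array left out its call held only without WK2 replicate 1, over an adjusted p of 0.0340 to 0.148 (limma), with 0.0810 without WK2 replicate 3, while it held under quantile normalization (log2 1.12, adjusted p = 0.0329) and cyclic loess (log2 1.17, adjusted p = 0.0400). S100a8 and S100a9, whose product calprotectin withholds zinc from microbes, differed by -0.44 ± 0.19 and 0.87 ± 0.52 in WK2 (adjusted p = 0.164 and 0.267, limma). The S100a8 probe was far dimmer, with a control mean of 568 beside 83231 for S100a9, and how well it reads its gene was not tested.

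Glucocorticoid-induced genes other than the metallothioneins were set beside Mt1. Of 14 such genes, 0 were called higher and 1 lower in WK2, with 7 above and 7 below control and a median of 0.02 against 0.14 over all features. In D1 0 were called, with 4 above and 10 below control and a median of -0.12 against 0.03. The gene called in WK2 was Zbtb16, which fell by 2.44 on the log2 scale (adjusted p = 0.0349, limma) and was called in 11 of 21 alternatives. With 1 array left out it was called only without D1 replicate 1 or WK2 replicate 1, over an adjusted p of 0.0329 to 0.148 (limma). Of 10 interleukin-6 and acute phase genes 0 were called. Il6 differed by 0.75 ± 0.25 (SE) in WK2 against control at a low level, with means of 76.0 and 156.8, Il1b by 0.90 ± 0.38 in the same comparison, and Il6ra by -0.79 ± 0.23 between WK2 and D1 (adjusted p = 0.156, limma).

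Summed markers of 14 cell types were set beside the metallothioneins. Between WK2 and control, 3 sums were higher with no overlap (sustentacular cells, horizontal basal cells and mature olfactory neurons), 2 were lower (globose basal and cycling cells, and endothelium) and 9 overlapped. Among single features, 37.6% did not overlap in this comparison (23.8% higher and 13.8% lower), so such counts are common in these data. Without WK2 replicate 3 the counts were 4, 3 and 7, with neutrophils now higher and macrophages lower.

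The sustentacular sum was 778171 to 1015490 in control, 990716 to 1223130 in D1 and 1227310 to 1347460 in WK2. All 4 measured markers had fitted differences above 0 in WK2 against control (median 0.51) and 0 were called. They ran from Cbr2, a carbonyl reductase gene, at 0.72 ± 0.19 (SE) to Sec14l3, a lipid transfer gene, at 0.23 ± 0.19, whose arrays overlapped. The 3 markers of horizontal basal cells, the reserve stem cells of this epithelium, summed to 24672 to 25522 in control and 36401 to 40556 in WK2, with 2 of the 3 above control. The 9 mature neuron markers, with a median of 0.18, went both ways. Omp itself, by which samples were picked, differed by 0.60 ± 0.19 (adjusted p = 0.0854, limma), while Adcy3 and Gnal, of the odorant signalling cascade, differed by -0.58 ± 0.23 and -0.44 ± 0.18 (adjusted p = 0.132 and 0.145, limma). The neuron sum was 1102670 to 1278540 in control and 1341800 to 1454430 in WK2. Omp was the brightest of the 9, with means of 337461 in control and 506735 in WK2. The higher neuron sum therefore rests in large part on the gene by which samples were picked. The WK2 arrays of Adcy3 and Gnal lay below all control arrays.

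Markers of globose basal and cycling cells, the active progenitors, summed to 22505 to 24922 in control and 18389 to 21136 in WK2, and endothelial markers to 6014 to 6931 and 5255 to 5573. Of the 4 measured progenitor markers, 2 lay above and 2 below 0 in WK2 against control. Neurog1 differed by 0.72 ± 0.27 (SE), with all its WK2 arrays above control, and Top2a by 0.38 ± 0.19. Mki67, the brightest of the 4, differed by -0.74 ± 0.20. Its means were 11575 in control and 7060 in WK2, so it weighed most in the lower sum. Among all marker genes 3 were called in WK2 against control, where 1.61% of all features were (0.432% higher and 1.18% lower). Each of the 3 fell, as did most called features. The log2 differences were -1.11 for Kit of the progenitor list, -1.26 for Dpysl5 of the immature neuron list and -1.53 for Dmp1 of the bone list (adjusted p = 0.0390, 0.0398 and 0.0352, limma). With 1 array left out all 3 were called without WK2 replicate 1, Dmp1 also without control replicate 2, and none in the other 7 cases, over an adjusted p of 0.0331 to 0.148 (limma). Members of the same lists went both ways. Of the immature neuron markers 2 lay above and 4 below 0, with Gng8 at 0.16 ± 0.27 (SE). Of the bone markers 1 lay above and 2 below 0, with Ibsp at 0.39 ± 0.28. The sums of both lists overlapped between WK2 and control. Neutrophil sums overlapped, at 157025 to 388004 in control and 311104 to 436941 in WK2. Their part in the metallothionein values was not tested.

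The genes whose values ran most like each member over the 9 arrays were found among 17799 other genes, leaving out predicted and clone names, by Pearson's r of log2 values. These are a description, and the genes share the 9 arrays. For Mt1 these were Fau, which encodes a ribosomal protein fused to a ubiquitin-like protein (0.964), Ccdc81 (0.964) and Zfhx4, a zinc finger homeobox gene (0.962). For Mt2 they were Dtd2 (0.984), Cct6b, a chaperonin subunit (0.984), and Ints6l (0.983), and for Mt3 they were Phtf1os (0.948), Bop1, a ribosome assembly gene (0.941), and Adam22 (0.940). For Slc30a1 they were Ranbp3, a nuclear transport gene (0.991), Polr2l, an RNA polymerase subunit (0.987), and Ccdc92 (0.987). For Mtf1 they were Rnf216, a ubiquitin ligase (0.993), Ehmt1, a histone methyltransferase (0.990), and Dpp3 (0.988), and for Slc39a14 they were H2-M2 (0.980), Nim1k (0.969) and Tdpoz4 (0.969). None of the 6 members was among the nearest 3 of another.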

How the data were processed

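Total RNA of the olfactory mucosa, extracted with Trizol, was labelled with Cy5 and hybridised to 9 single-colour arrays, per the labels' protocols. What the authors deposited is a linear intensity for each of 26423 probes on every array, of which 8 to 18 per array lie below 0. For the scanner, the software and any scaling, a description is not given in the sources used here. Values were used as deposited, with array medians of 1202 to 1383 in control and 1333 to 1447 in WK2. Median centring moved the median of all features in WK2 against control from 0.14 to 0.04. Under it the Mt1 call did not hold (adjusted p = 0.0507, limma).

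Probes were named through the platform annotation, updated by gene ID through RefSeq's table for GRCm38.p6 (21825 of 21876 named probes matched). No symbol was listed for 4547 probes, tested under probe IDs, and several symbols for 0. The brightest probe stood for a gene, which left 23631 features. Values were tested as log2(intensity + 50), which understates the fold of dim genes, with limma 3.58.1 in R 4.3.3 in 1 model over all 9 arrays, with 3 contrasts and Benjamini-Hochberg adjustment over all features, at an adjusted p under 0.05. The number of arrays limits the precision. On simulated data for WK2 against control, with 200 of 23631 features changed, the test recovered 47% of the 2-fold and 83% of the 4-fold changes and called 8 unchanged features, so smaller differences can be missed.

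The 6 members and the gene lists were chosen with earlier results of these data known. Genes were named by a rule: all members, each list's called genes or else its 3 of smallest p, and the 3 genes most like each member. Marker and neighbouring genes were named as context. Alternatives covered normalization, filters, pseudocounts, probe averaging, moderation, weights, the replicate block, the arrays fitted and the threshold.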

Additional observations from a re-analysis of the deposited data

How the results depend on the processing

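Of 396 combinations of 18 differences between groups (6 genes in 3 comparisons) and 22 alternatives, 370 kept their direction and their side of the threshold, 16 ended the Mt1 call and 10 turned the sign of a difference near 0. The signs that turned were all in D1 against control. Mtf1 lay at -0.010 under median centring, -0.092 with array weights, -0.12 with both control replicate 2 and WK2 replicate 3 left out and, leaving out 1 array, at -0.12 to 0.12. Slc39a14 lay at 0.019 under quantile normalization, 0.025 under cyclic loess and, leaving out 1 array, at -0.14 to 0.10. The cause was not tested.

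The number of members called in WK2 against control was 0 instead of 1 under quantile normalization, median centring, cyclic loess, a pseudocount of 16, trend and robust moderation, the replicate block, the fit of the 2 groups compared, and without control replicate 2 and WK2 replicate 3. It ran from 0 to 1 leaving out 1 array, and was 2 at an adjusted p under 0.1, where Slc30a1 joined Mt1. The Mt1 adjusted p (limma) was 0.0507 under median centring and 0.0524 with trend and robust moderation.

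The number of features called in WK2 against control, 380 with 26.8% of them higher, was 1419 under quantile normalization, 1545 under median centring (14.3% higher), 682 under cyclic loess, 576 and 1135 without the dimmest 25% and 50% of features, 777 and 131 with pseudocounts of 500 and 16, 2738 with array weights (46.7% higher), 1 with the replicate block, 0 in the fit of the 2 groups, 0 without control replicate 2 and WK2 replicate 3, and 3597 at an adjusted p under 0.1. It ran from 1 to 953 leaving out 1 array. Both counts of 0 are limma's, beside 5782 and 5570 at an unadjusted p under 0.05. For WK2 against D1 the 22 features became 75, 50 and 53 under the 3 normalizations in that order, 36 without the dimmest 25%, 13 with a pseudocount of 500, 134 with array weights, 8 with the replicate block, 2 in the fit of the 2 groups, 2 without both arrays, 69 at an adjusted p under 0.1 and 1 to 27 leaving out 1 array. For D1 against control it was 0 to 1 leaving out 1 array.

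Replicate numbers did not pair the samples: the correlation of deviations from the group means between same-numbered arrays was -0.28 to 0.14, over 0.1 in 2 of 9 pairs. With the replicate block the Mt1 difference stayed at 0.66 with an adjusted p of 0.105 (limma). The median of all features in WK2 against control moved from 0.14 to 0.04 under median centring and 0.01 under quantile normalization, and Mt1 then lay at 0.56 and 0.13.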
